A study of Arabidopsis thaliana with 6 samples.

Results

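The Aux/IAA and ARF genes of *Arabidopsis thaliana* were examined for binding of the WIP zinc finger proteins TT1, a regulator of seed coat pigment, and NTT, a regulator of the transmitting tract. They were taken by name alone, as every nuclear gene whose symbol or synonym is IAA1 to IAA34 or ARF1 to ARF22. The names matched 53 genes, of which 2 encode ADP-ribosylation factors, small GTPases that share the abbreviation ARF, and were left out. This left 51 genes, 29 *Aux/IAA* and 22 *ARF*, of 27444 nuclear protein-coding genes. Names IAA21 to IAA25 are older names of *ARF5*, *ARF7* and *ARF19*, which were counted once, as *ARF* genes. *ARF19* also has ARF11 among its synonyms, and the name *ARF11* is used here for AT2G46530.

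Binding was measured by ChIP-seq in 7-day-old Col-0 seedlings of the lines *Dex:TT1-GFP* and *Dex:NTT-GFP*. In these lines dexamethasone (Dex) switches on a GFP fusion of the WIP protein from the pOp6 promoter. The plants carry a constitutive driver, which the study names LhGR in its results, for the control lines, and LhG4 in its methods. The 6 libraries were 1 TT1 ChIP and its input, and 2 NTT ChIPs, called NTT rep1 and NTT rep2, with 2 inputs. Every library, inputs included, came from a pool of seedlings kept in 1 µM Dex for 8 h and fixed with 1% formaldehyde, and the ChIPs used an anti-GFP antibody. The proteins were thus made in tissues where the native genes may be silent, and a library of plants without Dex or without the fusion was not analysed here.

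The lists held 12908 TT1 peaks, 16167 NTT rep1 peaks and 7447 NTT rep2 peaks. Read depth is not known from these lists, so that the lack of a peak at a gene cannot be told from too few reads. The fold enrichment of a peak is the authors' ratio of ChIP signal over local background at the summit, its highest point. It was read within a library and not between libraries, by its percentile among all peaks of that library. TT1 had 1 ChIP library, so that no TT1 value has a replicate error, and no test between TT1 and NTT was made. A gene was counted as having a peak when a summit lay from 2 kb upstream of its start to its end.

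Auxin acts through a short chain of proteins. ARF proteins bind auxin response elements (AuxRE) in promoters, and Aux/IAA proteins bind ARFs and recruit the corepressor TOPLESS (TPL), which keeps the target genes off. Auxin joins Aux/IAA proteins to the F-box receptors TIR1 and AFB, the Aux/IAA protein is degraded, and the ARF is set free. Many *Aux/IAA* genes are themselves switched on by auxin through AuxRE, which makes the chain a feedback loop.

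The sequences under the TT1 summits of the most strongly bound genes show the DNA that the rest of the text refers to. For 8 of the 10 genes with the best mean percentile over the 3 libraries, the window around the highest TT1 summit is given below 5′ to 3′ on the strand of the gene, in TAIR10.1 coordinates. Capitals mark matches, on either strand, to AuxRE (TGTCTC or TGTCGG), W-box (TTGACC or TTGACT) or GAGA repeat (GAGAGAG). Windows are 101 bp long, or 29 bp where a longer one would run into untranslated exon. The 2 genes left out, *IAA2* and *IAA12*, could be shown only at 29 bp, and those short windows hold none of the motifs. As printed, the 8 windows are thus richer in matches than those of the 10 would be. In the 201 bp used for the motif counts below, *IAA2* and *IAA12* both hold an AuxRE, 53.5 and 12.5 bp from the TT1 summit.
ARF4, chr5:24312638-24312666, minus strand, 5′ UTR: tctgtcttggcttTGTCTCccccgcttat
ARF2, chr5:24909630-24909730, plus strand, upstream, in the lncRNA gene AT5G09045: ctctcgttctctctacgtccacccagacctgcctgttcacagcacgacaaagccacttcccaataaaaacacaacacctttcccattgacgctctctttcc
IAA16, chr3:1291202-1291302, minus strand, upstream: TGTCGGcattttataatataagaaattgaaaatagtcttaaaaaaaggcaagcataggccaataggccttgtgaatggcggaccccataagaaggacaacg
IAA18, chr1:19305098-19305126, plus strand, 5′ UTR: ctaaacttcctttaagggcaGAGAGAGAG
IAA9, chr5:26251721-26251821, plus strand, upstream: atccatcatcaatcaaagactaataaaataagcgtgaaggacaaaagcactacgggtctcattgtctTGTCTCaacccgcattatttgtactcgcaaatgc
IAA19, chr3:5263760-5263860, plus strand, upstream: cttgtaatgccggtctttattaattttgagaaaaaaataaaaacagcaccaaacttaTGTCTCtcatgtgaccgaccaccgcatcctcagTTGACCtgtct
IAA26, chr3:5615726-5615826, minus strand, upstream, in the lncRNA gene AT3G03335: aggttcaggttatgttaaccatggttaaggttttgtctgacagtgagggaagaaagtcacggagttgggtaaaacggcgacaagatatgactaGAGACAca
IAA13, chr2:14116148-14116248, minus strand, upstream: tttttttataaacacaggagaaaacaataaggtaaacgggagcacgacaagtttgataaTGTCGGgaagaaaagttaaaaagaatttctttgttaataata

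TT1 peaks were found at 29 of the 51 genes (56.9%), where 38.3% of all protein-coding genes had one. NTT rep1 also had peaks at 29 of them (56.9%), against 44.7% of all genes, and NTT rep2 at 18 (35.3%), against 26.8%. The same 18 genes had peaks in both NTT libraries, where 24.4% of all genes did. All 3 libraries had peaks at 17 genes (33.3%), against 20.2% of all genes, and no library at 19, or 37.3%, against 47.9%. The share of genes with peaks was thus above the background in each library, but these genes are also longer, with a median length of 2601 bp against 2078 bp, and longer genes carried peaks more often. Under 1500 bp, TT1 peaks were at 3 of 10 of these genes, against 27.3% of all genes of that length. From 1500 to under 2500 bp they were at 10 of 13 (76.9%, against 39.3%), and at 3500 bp and over at 9 of 12 (75.0%, against 47.6%). From 2500 to under 3500 bp they were at 7 of 16 (43.8%, against 45.5%), a class that holds all 7 *ARF* genes of the chromosome 1 group described below.

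**Figure D1:**
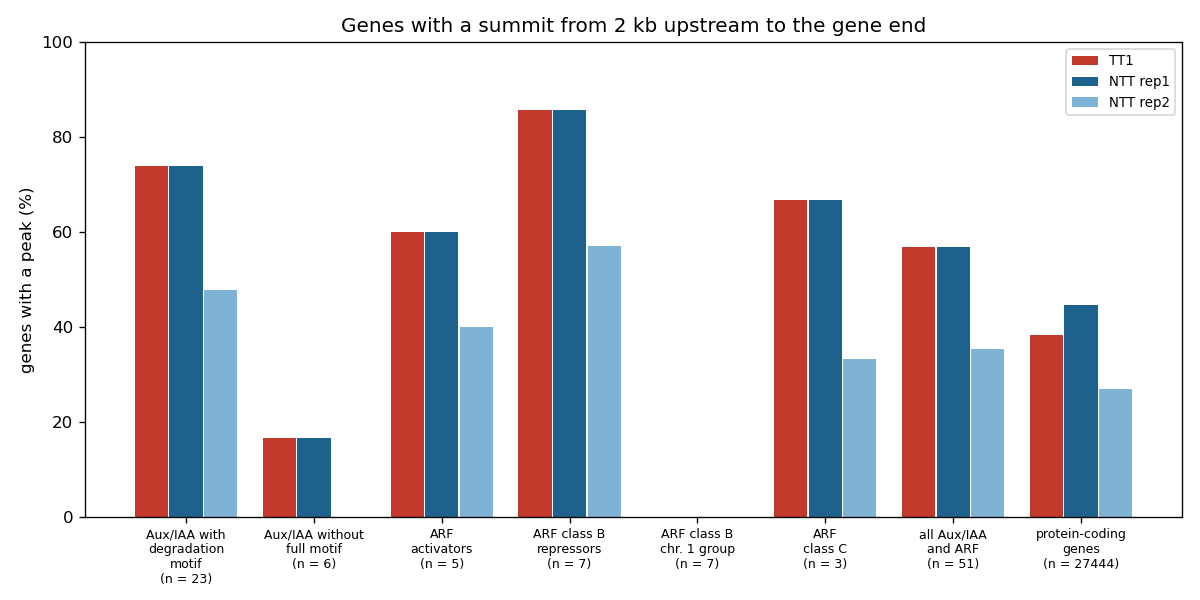
Percentage of genes (vertical axis) with a peak summit from 2 kb upstream to the gene end, by class of *Aux/IAA* and *ARF* gene and for all protein-coding genes, with 1 bar for each library and n genes in brackets. The class B *ARF* genes outside the chromosome 1 group reach 85.7% in TT1 and in NTT rep1, whereas the 7 genes of that group have no bar.

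*Aux/IAA* genes carried TT1 peaks at 18 of 29 (62.1%, against 38.3% of all genes), NTT rep1 peaks at 18 (62.1%, against 44.7%) and NTT rep2 peaks at 11 (37.9%, against 26.8%). The same 11 had peaks in all 3 libraries (37.9%, against 20.2%). All 11 belong to the 23 canonical genes, whose proteins carry the degradation motif that the auxin receptors recognise. Of these 23, TT1 had peaks at 17, NTT rep1 at 17 and NTT rep2 at 11, and 5 had none (*IAA5*, *IAA6*, *IAA15*, *IAA17* and *IAA27*). The other 6 genes, *IAA20* and *IAA30* to *IAA34*, encode proteins that lack all or part of that motif. Among them only *IAA30* had a TT1 peak and only *IAA33* a peak in NTT rep1, and *IAA20*, *IAA31*, *IAA32* and *IAA34* had none. Most of these 6 are short, with a median length of 1268.5 bp, and 13.0% of all genes under 1500 bp had peaks in all 3 libraries.

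*IAA2* (AT3G23030), an auxin-inducible repressor gene, had the *Aux/IAA* peak with the best mean percentile. The fold enrichment of its strongest peak was 6.29 in TT1, 10.3 in NTT rep1 and 6.40 in NTT rep2, and the summits lay 162, 362 and 110 bp inside the gene. A second site upstream was also called in all 3 libraries, at −893, −920 and −932 bp. *IAA2* thus ranked in the top 10% of peaks of every library. Its paralog *IAA1* was bound weakly at a single place, with 3.01, 3.61 and 3.47 in the same order of libraries and summits at −65, −66 and −66 bp. These 3 summits differed by 1 bp, the closest match among the 20 sites common to all libraries, although the NTT rep1 peak lay at percentile 3.82 of its library.

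*IAA16* (AT3G04730) had the most peaks in total of the 51 genes, with 3 in TT1, 4 in NTT rep1 and 5 in NTT rep2. The strongest reached 5.93 in TT1 at −361 bp, 11.6 in NTT rep1 at −797 bp and 5.60 in NTT rep2 at −285 bp. All libraries shared 3 of its sites, 1 upstream, 1 in the 5′ UTR and 1 in the 3′ UTR. At the last, the start of *PR4*, a pathogenesis-related gene, is nearer to the summit than that of *IAA16*.

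*IAA18* and *IAA26* are paralogs, and both had peaks in every library. *IAA18* (AT1G51950) had 7.19 in TT1, 11.1 in NTT rep1 and 4.92 in NTT rep2, at 31, 51 and 39 bp inside the gene, beside the GAGA repeat printed above. *IAA26* (AT3G16500) had 7.25, 9.09 and 4.19 in the same order, with summits farther upstream at −973, −919 and −993 bp. The TT1 peaks of the pair stood at almost the same percentile, 96.2 and 96.4, at different places along the gene.

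*IAA12* and *IAA13* form another pair with peaks in every library. *IAA12*, also called BODENLOS, restrains ARF5 in the embryo. Its strongest peaks had 7.06 in TT1 at −48 bp, 7.65 in NTT rep1 at 141 bp and 4.86 in NTT rep2 at 77 bp. *IAA13* had 5.20 at −109 bp, 8.03 at 90 bp and 4.48 at 67 bp in the same order. At both genes the TT1 summit thus lay upstream of the start and the 2 NTT summits in the 5′ UTR, although the peaks overlapped. The summits of the 3 libraries spanned 189 bp at *IAA12* and 199 bp at *IAA13*, where the median over the 20 sites common to all libraries was 50 bp.

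*IAA9* (AT5G65670), a canonical repressor gene, had 5.47 in TT1 and 10.4 in NTT rep1 at a far upstream site, at −1637 and −1622 bp. In NTT rep2 the strongest peak, with 4.72, lay at −125 bp, where TT1 had a second peak of 4.05 at −123 bp. No single site of *IAA9* was called in all 3 libraries. *IAA19* (AT3G15540), a regulator of hypocotyl bending also called MASSUGU2, had 4.50, 10.5 and 5.91 at −191, −239 and −204 bp. Its peaks lay over 3 AuxRE matches in the 201 bp centred on the TT1 summit, the most of the 17 genes with peaks in every library.

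The other canonical genes had lower or fewer peaks. *IAA11* had 7.05 in TT1, 6.90 in NTT rep1 and 2.80 in NTT rep2, at −892, −924 and −987 bp, but the start of *ABCB23*, a transporter gene, was nearer to each summit. *IAA4* had 3.31, 5.17 and 3.50. *IAA3*, *IAA7*, *IAA10*, *IAA14* and *IAA28* had peaks in TT1 and NTT rep1 and none in NTT rep2, with fold enrichments from 3.74 to 4.71 in TT1 and from 4.09 to 8.60 in NTT rep1. At *IAA28* the TT1 summit, at −665 bp, and the NTT rep1 summit, 318 bp inside the gene, belonged to different peaks. The strongest TT1 and NTT rep1 peaks of *IAA7* also lay at different sites. *IAA8* had a single peak, in NTT rep1, with 6.30 at 165 bp.

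**Figure D2:**
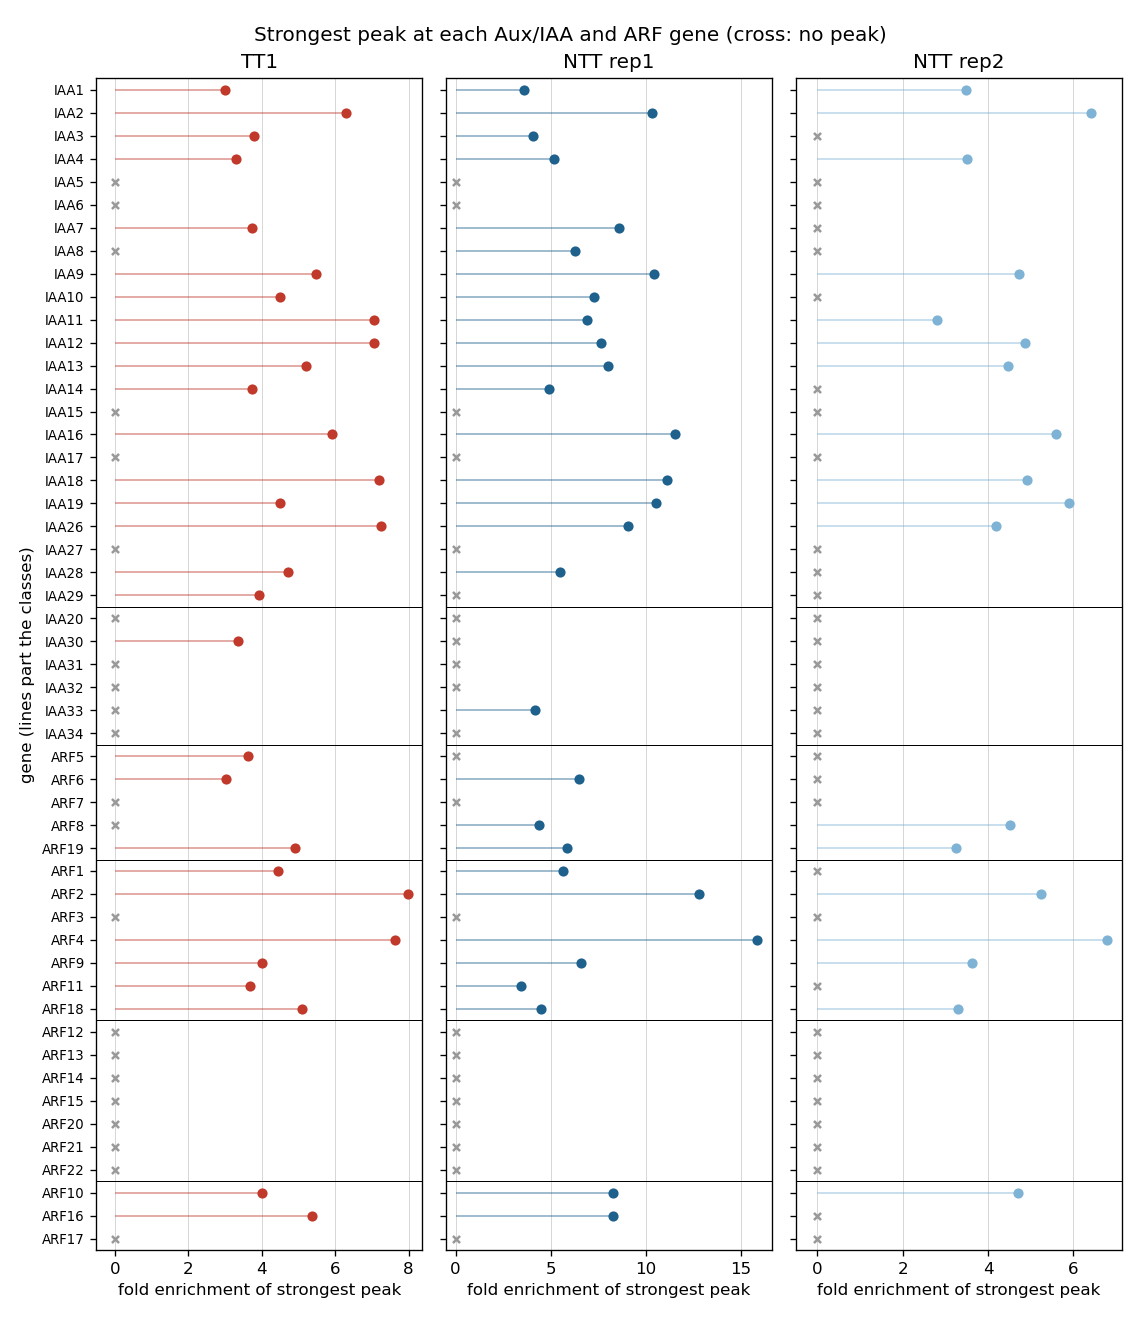
Fold enrichment of the strongest peak at each of the 51 genes (horizontal axis, own scale for each library), by gene and class from top to bottom, with a cross at 0 where no peak was called. *ARF2* and *ARF4* have the highest values in TT1 (7.98 and 7.64) and in NTT rep1 (12.8 and 15.9).

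*ARF* genes had TT1 peaks at 11 of 22 (50.0%, against 38.3% of all genes), NTT rep1 peaks at 11 (50.0%, against 44.7%) and NTT rep2 peaks at 7 (31.8%, against 26.8%). In all 3 libraries 6 had peaks (27.3%, against 20.2%). The *ARF* genes are long, all of them over 2500 bp, with a median of 3670 bp. Of all genes from 2500 to under 3500 bp, 45.5% had a TT1 peak and 24.6% had peaks in all 3 libraries. At 3500 bp and over these shares were 47.6% and 27.1%, so that the *ARF* shares lay near those of genes of like length. The classes are small, and differences between them were not tested. Class B repressor genes outside the chromosome 1 group, with a median length of 4227 bp, had peaks at 6 of 7 in TT1 and in NTT rep1 (85.7%). In NTT rep2 they had peaks at 4 of 7 (57.1%). Among the 5 activator genes (*ARF5*, *ARF6*, *ARF7*, *ARF8* and *ARF19*), 3 had TT1 peaks, 3 had NTT rep1 peaks and 2 had NTT rep2 peaks. The class C genes *ARF10*, *ARF16* and *ARF17* are targets of the microRNA miR160. Of them *ARF10* had peaks in every library, *ARF16* in TT1 and NTT rep1, and *ARF17* in none.

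*ARF4* (AT5G60450, chromosome 5, 24308255 to 24312784, minus strand) had the best mean percentile of all 51 genes. ARF4 sets the lower side of leaves, and its mRNA is cut by small RNAs from *TAS3*. Its strongest peaks had 7.64 in TT1, 15.9 in NTT rep1 and 6.80 in NTT rep2, with summits in the 5′ UTR at 132, 117 and 123 bp. The NTT rep1 peak lay at percentile 99.96 of its library. The TGTCTC printed above is centred 1.5 bp from the TT1 summit. A second, upstream site was called in both NTT libraries, with 8.21 at −1975 bp and 5.31 at −1995 bp. At that site TT1 had a peak of 4.46 with its summit at −2013 bp, just outside the 2 kb limit.

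*ARF2* (AT5G62000) restrains cell division and promotes leaf senescence, and its mRNA is also a *TAS3* target. It had 7.98 in TT1, 12.8 in NTT rep1 and 5.23 in NTT rep2, with summits at −511, −511 and −487 bp. Another 2 sites of *ARF2*, at −1839 bp and at 378 bp for TT1, were also called in every library. The 5′ UTR site had 3.89, 11.5 and 4.59 at 378, 340 and 330 bp. At the distal site the start of AT5G61997 was nearer. *ARF3*, the remaining *TAS3* target and a partner of *ARF4* in leaf polarity, had no peak in any library.

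The other repressor genes had peaks of lower rank. *ARF18* had 5.09 in TT1, 4.48 in NTT rep1 and 3.29 in NTT rep2, all in the 5′ UTR within 19 bp of each other. *ARF9* had 4.02, 6.58 and 3.61, without a site common to all libraries. *ARF1* had 4.45 in TT1 and 5.64 in NTT rep1. *ARF11* had 3.70 in TT1 at −344 bp and 3.45 in NTT rep1 at 3480 bp, which are separate sites, and in its 3′ UTR a TT1 peak of 3.54 overlapped that of NTT rep1. A stronger NTT rep1 peak, of 9.80, had its summit beyond the end of *ARF11*, 4001 bp from its start, and was not counted. Of class C, *ARF10* had 4.02 at 235 bp, 8.26 at 281 bp and 4.70 at −1142 bp. Both of its sites were called in every library, although the NTT rep2 peak at the 5′ UTR site had only 2.58, at percentile 0.79. *ARF16* had 5.37 in TT1 and 8.29 in NTT rep1, at 63 and 66 bp.

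The activator genes had few strong peaks. *ARF19* had 4.90 in TT1, 5.83 in NTT rep1 and 3.26 in NTT rep2. The TT1 and NTT rep2 values came from its 3′ UTR, 5311 and 5306 bp from its start, where the start of AT1G19210 is nearer, and that of NTT rep1 from −272 bp, where TT1 had a peak of 2.95. *ARF7*, the close paralog that acts with *ARF19* in lateral root formation, had no peak in the window, although a TT1 summit with 4.22 lay outside it at −2250 bp. *ARF6* and *ARF8*, flower and fruit regulators targeted by miR167, had different patterns. *ARF8* was the only one of the 51 genes with peaks in both NTT libraries and none in TT1, with 4.37 at 77 bp and 4.51 at 20 bp. Of all genes, 24.4% had peaks in both NTT libraries and 20.2% in all 3, so that other genes also had this pattern. *ARF6* had 3.04 in TT1 at −1051 bp and 6.51 in NTT rep1 at −1889 bp, and no NTT rep2 peak in the window. Just outside it, a TT1 summit of 3.99 at −2170 bp and a NTT rep2 summit of 4.19 at −2163 bp belonged to peaks that overlapped the distal NTT rep1 peak, so that this place was called in all 3 libraries.

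No peak was called at *ARF12*, *ARF13*, *ARF14*, *ARF15*, *ARF20*, *ARF21* or *ARF22*, 7 closely related class B genes within 668154 bp of chromosome 1. The stretch held 23 TT1, 34 NTT rep1 and 13 NTT rep2 peaks, or 34.4, 50.9 and 19.5 peaks per Mb, against 116, 146 and 66.7 per Mb over the chromosome. Of its 117 protein-coding genes, 16 had a TT1 peak (13.7%, against 38.9% of genes on the chromosome), 24 a NTT rep1 peak (20.5%, against 45.8%) and 10 a NTT rep2 peak (8.55%, against 27.4%). Only uniquely mapped reads of 50 bp had been kept, and the windows of these 7 genes held fewer unique sequences than those of the other 44. A median of 88.0% of their 50-base words occurred once in the genome (75.5 to 100%), against a median of 100% and a lowest value of 91.2% for the others. The part of this in the absence of peaks was not tested.

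Paralogs differed in 4 groups, in which 1 copy had peaks in all 3 libraries and another in none. These were *ARF19* and *ARF7*, *IAA19* with *IAA5* and *IAA6*, *IAA16* with *IAA17*, and *IAA9* with *IAA27*. In the *IAA16* group, *IAA7* had 3.74 in TT1 at 2348 bp, in the 3′ UTR, and 8.60 in NTT rep1 at 40 bp, which are separate sites. The NTT rep1 peak that overlapped the TT1 peak of *IAA7* had 5.72. *IAA14* had 3.75 in TT1 and 4.92 in NTT rep1, and *IAA17*, known as AXR3, had no peak. *IAA17* and *IAA3* were the only 2 of the 51 genes within 10 kb of each other, and they point away from each other across 6388 bp that hold no other gene. The summits between them, 1 in TT1 (3.78) and 1 in NTT rep1 (4.09), lay on the side of *IAA3*, at −503 and −474 bp. By contrast, both copies had peaks in every library in the pairs *IAA1* and *IAA2*, *IAA12* and *IAA13*, and *IAA18* and *IAA26*.

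A TT1 peak without any NTT peak was found at 3 of the 51 genes. Of all 27444 genes, 13137 had no peak in any library, 12261 had one in NTT rep1, 7355 in NTT rep2 and 6706 in both NTT libraries. These counts fix how many of all genes had a TT1 peak and no NTT peak, and the 3 genes are not read as an excess. *IAA29*, a gene induced by shade, had 3.94 at −1333 bp and a second peak of 2.99 in its 3′ UTR. *IAA30* had 3.35 at −508 bp. *ARF5*, also called MONOPTEROS, the activator that patterns the embryo, had 3.62 at −1984 bp, just inside the 2 kb limit. All 3 values were below the median of the TT1 list, 3.99. *IAA33* had a peak of 4.18 in NTT rep1 alone, at −689 bp.

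The strongest peaks of these genes had a somewhat higher median in each library than those of all genes with a peak. The median fold enrichment at these genes was 4.50 in TT1 (29 genes, 3.01 to 7.98), against 4.22 over all genes with a TT1 peak. It was 6.90 in NTT rep1 (29 genes, 3.45 to 15.9), against 6.44, and 4.60 in NTT rep2 (18 genes, 2.80 to 6.80), against 3.97. Above the median of all genes with a peak were 17 of 29 genes in TT1, 17 of 29 in NTT rep1 and 12 of 18 in NTT rep2. The greater length of these genes was not taken into account here. The strongest peak was in the top 10% of the library's list for 7 of the 29 genes in TT1 (24.1%, against 12.4% of all genes with a peak), 7 of 29 in NTT rep1 (24.1%, against 13.5%) and 4 of 18 in NTT rep2 (22.2%, against 10.3%).

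Upstream sequence held 26 of the 46 TT1 summits at *Aux/IAA* and *ARF* genes (56.5%), against 62.7% of the summits at all genes. The 5′ UTR held 12 (26.1%, against 21.0%), the 3′ UTR 5 (10.9%, against 4.87%), coding exons 3, and introns none. In NTT rep1 the 5′ UTR held 20 of 54 summits (37.0%, against 24.1%), and in NTT rep2 it held 10 of 30 (33.3%, against 27.9%). The share in the 5′ UTR was thus above that of all genes in every library. The gene's own start was the nearest one for 40 of 46 TT1, 48 of 54 NTT rep1 and 25 of 30 NTT rep2 summits. Over all genes it was the nearest for 10495 of 14356, 13522 of 18545 and 6389 of 8928 assigned summits in the same order, a smaller share in each library. The all-gene positions thus include more summits that lie nearer to the start of another gene.

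**Figure D3:**
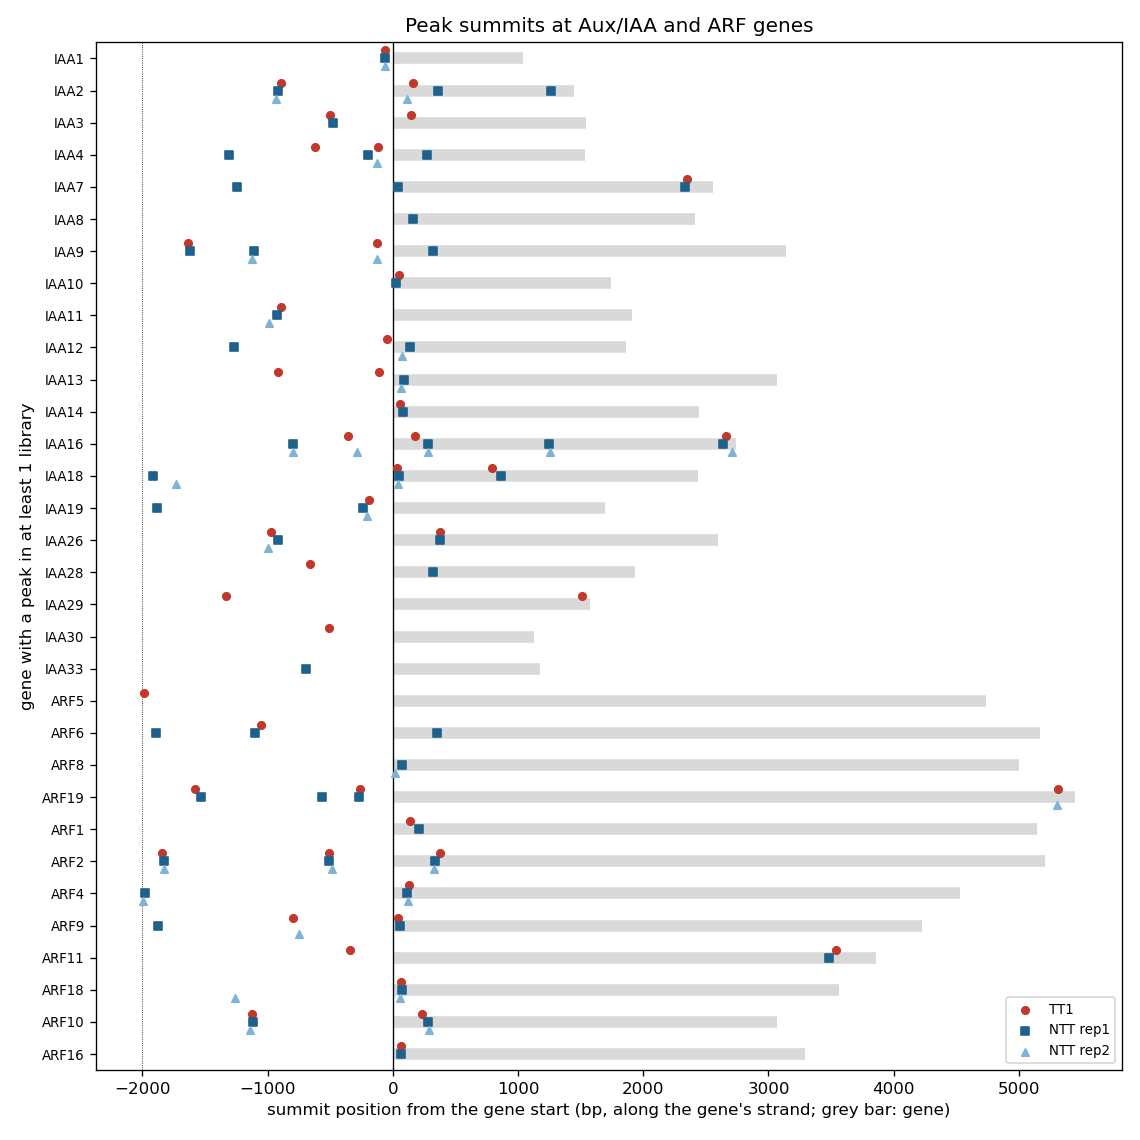
Positions of peak summits from the gene start in bp, along the strand of the gene, for the 32 genes with a peak in at least 1 library, with grey bars for the genes and a dotted line at the upstream limit of 2 kb. More TT1 summits lie upstream (26 of 46) than in the 5′ UTR (12). Summits of the 3 libraries lie close together upstream at *ARF2* (−511 bp in TT1, −511 and −487 bp in NTT). They do so in the 5′ UTR at *ARF4* (132 bp in TT1, 117 and 123 bp in NTT).

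Peaks that overlapped between libraries were merged into 66 sites, 41 at *Aux/IAA* and 25 at *ARF* genes. All 3 libraries shared 20 sites, at 14 genes, and TT1 and NTT rep1 shared another 14. With summits inside the gene windows only, NTT rep1 alone had 14 sites and TT1 alone 9. Sites were not merged over all genes, so that the counts of sites have no background share beside them. The NTT rep1 list is the longest (16167 peaks) and the NTT rep2 list the shortest (7447), which bears on these counts. At 4 of the 66 sites a peak of another library overlapped with its summit just outside the window. With such peaks counted, sites of all 3 libraries were 23, which adds upstream sites of *ARF4*, *ARF6* and *IAA18*, and those of NTT rep1 alone were 12. Of the 20 common sites, 15 had their 3 summits within 100 bp, and 13 had the TT1 summit within 500 bp of the gene start. Among the 46 TT1 peaks, 34 (73.9%) overlapped a peak of NTT rep1, against 74.8% of TT1 peaks at all genes. An overlapping peak in NTT rep2 was found for 23 (50.0%, against 42.6%). Where TT1 and NTT rep1 peaks overlapped, their summits lay a median of 28 bp apart, the same as at all genes. The 2 NTT libraries shared 27 of the 54 peaks of NTT rep1 (50.0%, against 40.8%) and 26 of the 30 peaks of NTT rep2 (86.7%, against 87.2%). In the other direction, TT1 peaks overlapped 38 of the 54 NTT rep1 peaks (70.4%, against 62.7%) and 25 of the 30 NTT rep2 peaks (83.3%, against 73.9%).

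Motifs were counted in the 201 bp around each summit. AuxRE was in 22 of the 46 TT1 windows (47.8%), against 18.8% of all TT1 peaks and 15.2% of windows of the same length around the starts of protein-coding genes. *Aux/IAA* genes had it in 14 of 28 TT1 windows and *ARF* genes in 8 of 18. In NTT rep1 it was in 16 of 54 windows (29.6%, against 19.4% of all peaks), with 10 of 34 at *Aux/IAA* and 6 of 20 at *ARF* genes. In NTT rep2 it was in 10 of 30 (33.3%, against 22.3%). There *Aux/IAA* genes had it in 4 of 18 windows (22.2%), near the share of all peaks, and *ARF* genes in 6 of 12 (50.0%). With no regard to peaks, AuxRE was at 13 of 29 *Aux/IAA* starts (44.8%) and at 3 of 22 *ARF* starts (13.6%), against the 15.2% of all starts. Of the 19 genes without a peak, 7 had AuxRE at their start (36.8%).

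The GAGA repeat was in 17 of 46 TT1 windows (37.0%, against 16.0% of all TT1 peaks and 14.8% of gene starts). It was in 24 of 54 windows of NTT rep1 (44.4%, against 21.5%) and in 13 of 30 of NTT rep2 (43.3%, against 26.1%). *ARF10* had the longest run, with 14 overlapping matches under its 5′ UTR summits. AuxRE and GAGA repeat occurred together in 8 TT1 windows, in 1 of which the matches shared bases, while 14 had AuxRE alone, 9 the GAGA repeat alone and 15 neither. At the starts of all 51 genes, 15 windows (29.4%) held the GAGA repeat.

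The W-box, the element bound by WRKY factors, was in 9 of 46 TT1 windows (19.6%), against 31.8% of all TT1 peaks and 21.8% of gene starts. In NTT rep1 it was in 25.9% of windows, against 28.1%, and in NTT rep2 in 26.7%, against 27.2%. The G-box (CACGTG) was in 5 TT1 windows (10.9%, against 9.91% of all TT1 peaks and 5.75% of gene starts). The core of the abscisic acid response element (ACGTG, which the G-box contains) was in 11 (23.9%, against 29.0% and 19.9%). Of the 10 best-ranked genes, 8 had AuxRE in the window of the strongest TT1 peak, from 1.5 bp (*ARF4*) to 53.5 bp (*IAA2*) from the summit. The other 2, *IAA18* and *ARF2*, had a GAGA repeat 9 and 49 bp from it, and the W-box was in the windows of *IAA19* and *IAA26* only. A match of letters is not a binding site, and whether these elements are used was not tested.

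**Figure D4:**
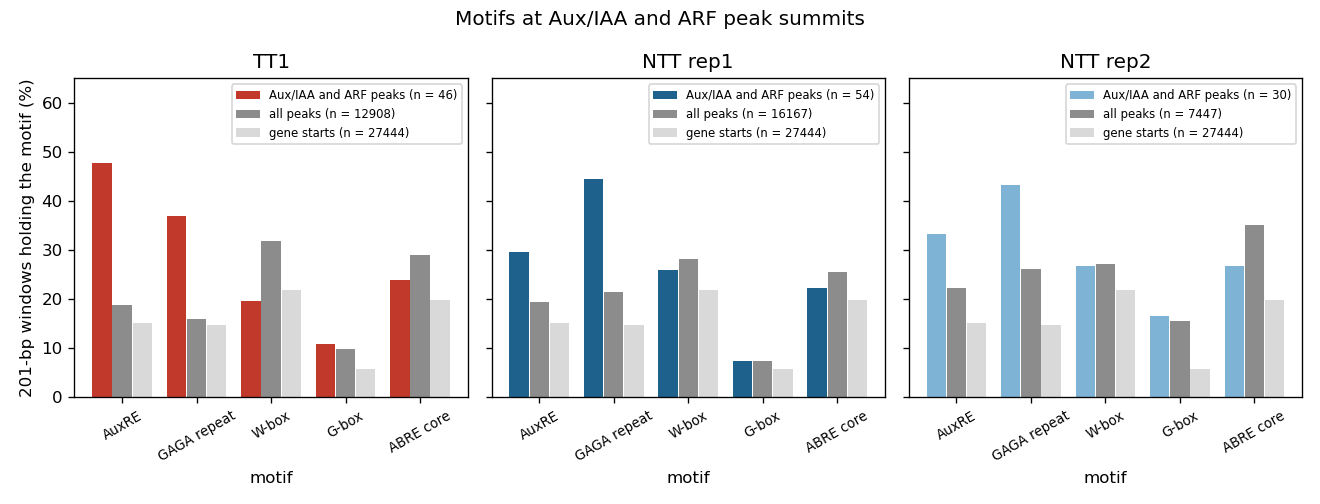
Percentage of 201-bp windows that hold each motif, in 1 panel for each library, for summits at *Aux/IAA* and *ARF* genes (coloured), all summits of the library (dark grey) and starts of protein-coding genes (light grey). AuxRE reaches 47.8% at the TT1 summits of these genes against 18.8% at all TT1 summits, and the W-box 19.6% against 31.8%.

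Other genes of the auxin response were counted from lists of 34 genes. TT1 had peaks at 16 (47.1%, against 38.3% of all genes), NTT rep1 at 14 (41.2%, against 44.7%) and NTT rep2 at 11 (32.4%, against 26.8%). Peaks in every library were at 10 (29.4%, against 20.2%) and in none at 17 (50.0%, against 47.9%). The lists as a whole thus lay above the background in TT1, in NTT rep2 and for all 3 libraries together, and below it in NTT rep1. These differences were not tested. The TPL corepressor genes, whose proteins Aux/IAA proteins recruit, had peaks in every library at all 5 of 5. The highest-ranked was *TPR4*, with 5.42 in TT1, 14.5 in NTT rep1 and 6.80 in NTT rep2, followed by *TPR1* (5.52, 12.1 and 5.80) and *TPR2* (7.96, 8.89 and 5.17). Auxin receptor genes had peaks in every library at 4 of 6, among them *TIR1* (7.82, 7.47 and 4.76), *AFB2* (3.74, 7.08 and 3.35) and *AFB4* (2.96, 8.76 and 3.33), and *AFB5* had none. Upstream of the chain, 10 of 13 auxin synthesis genes had no peak in any library (76.9%, against 47.9% of all genes), and 0 of 13 had peaks in all 3 (against 20.2%). Of 4 genes for subunits of the SCF ligase and its activator, only *CUL1* had peaks, in TT1 and NTT rep1. Of 6 direct ARF target genes, only *TMO7* had peaks in every library (6.26, 8.43 and 4.76), or 16.7%, against 20.2% of all genes. *LBD16* and *LBD18* had peaks in TT1 and NTT rep1, and the other 3 had none.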

How the data were processed

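Per the labels and the methods of the study, the authors mapped single-end 50-bp reads with BWA to TAIR10, kept uniquely mapped reads with mapQ above 30, discarded PCR duplicates (Picard) and ran MACS2 2.1.2 on each ChIP library against input, without pooling replicates. The deposited lists give the position, a score, the fold enrichment, which is a ratio over local background, and −log10 p-values and −log10 q-values at the summit. Inputs had no peak list used here. Library depth is not given in the sources used here, and limits which genes could be called.

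Gene models came from the RefSeq annotation of TAIR10.1, with the most upstream transcript start as the gene start, and no peak ended beyond a chromosome. Summits from 2000 bp upstream to the gene end were assigned, and peaks sharing 1 bp were merged into sites. Values were computed with Python 3.11.15, numpy 2.4.6 and pandas 2.3.3, and the assignment, overlap and motif steps were tested on simulated data. Percentiles are ranks of fold enrichment within a library. No test was made, since TT1 has 1 library. Every gene is accounted for, and values are given in full for the 10 genes with the best mean percentile over the 3 libraries, paralog groups with copies in all and in none, neighbours within 10 kb, and genes bound by TT1 or NTT alone. Other values were added after they were seen. The rule for the genes uses names alone, but this gene family, the lists and the motifs were picked for description with earlier results of these data known. Alternatives were a −log10 q of at least 20, other windows and gene starts, the nearest start only, equal numbers of peaks, leaving out an NTT library, summit distance in place of overlap, and 50-bp motif windows.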

Additional observations from a re-analysis of the deposited data

How the results depend on the processing

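Of 57 alternatives, 50 moved a value by less than the limit set for it (1.5 times for a count). With a −log10 q of at least 20, genes with peaks in all 3 libraries were 11 (against 13.6% of all genes) and *ARF* genes among them 3, without *IAA1*, *IAA4*, *IAA11*, *ARF9*, *ARF18* and *ARF19*. With as many peaks as in the shortest list, NTT rep1 had peaks at 18 genes (against 24.6%). Leaving out an NTT library gave 18 to 29 genes for NTT and 17 to 26 for all libraries, the higher values without NTT rep2, whose list is the shortest. With only the nearest start, 15 genes remained in all 3 libraries, without *IAA11* and *ARF19*. Within 50 bp of the summit, AuxRE was in 28.3% of TT1 windows (against 10.7% of all TT1 peaks) and the GAGA repeat in 19.6% (against 10.8%). No paired analysis was possible because the inputs, which share replicate numbers with the NTT ChIPs, have no peak list here and no test was made. Depth is unknown, and TT1 has no replicate.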
